A study of Mus musculus with 2 samples.

Results

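Naive-like CD8+ T cells are the cells of the brain libraries that carried transcripts of CD8+ T cells and of the naive state and none of 3 effector transcripts. They were taken by counting unique molecular identifiers (UMIs), each of which marks 1 captured transcript. A cell had to hold at least 1 UMI of *Cd8a* or *Cd8b1*, at least 1 of the CD3 genes *Cd3d*, *Cd3e* and *Cd3g*, none of *Cd4*, fewer than 2 of the B cell genes *Cd79a* and *Cd79b*, and under 1% of its UMIs from the neutrophil genes *S100a8* and *S100a9*. It also had to hold at least 2 UMIs of *Ccr7*, *Lef1* and *Dapl1* together, 0 of *Cxcr6*, *Gzmk* and *Gzmb*, and fewer than 2 of the cell cycle genes *Mki67*, *Top2a* and *Birc5*. The rule took 123 of 2478 cells, 60 of 1271 in the WT library and 63 of 1207 in the twi library. The cells were chosen by these UMI counts, measured in the same libraries, so the levels of the genes in the rule are given as a description only.

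CD45+ leukocytes were sorted from brain at postnatal day 21 and sequenced from the 3′ end of each transcript by droplet single-cell RNA sequencing. Both groups were untreated C57Bl/6 mice: WT littermates with the genotype galc+/+, and twi mice with the genotype galc-/-, the twitcher model of globoid cell leukodystrophy, which lacks the lysosomal enzyme galactosylceramidase. Each genotype was 1 library of pooled animals, 2 to 3 per group by the study's methods, so there is no replicate error, no test was made, and every interval is a 95% interval for counting error only. The naive-like cells held 221087 UMIs in WT, with a median of 3573 per cell, and 262548 in twi, with a median of 3907. *Galc* itself had 0 UMIs in the naive-like cells of either library, where a count of 0 allows up to 13.6 counts per 1000000 UMIs (CPM) in WT and 11.4 in twi, and a 3′ count does not read the mutation. No cell barcode was shared between the libraries.

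A naive CD8+ T cell has left the thymus and has not yet met its antigen. It circulates between blood and lymphoid organs, held on that route by the chemokine receptor encoded by *Ccr7* and the sphingosine phosphate receptor encoded by *S1pr1*, and it is kept quiescent by the transcription factors encoded by *Tcf7*, *Lef1* and *Klf2*. After activation these genes are turned down and genes for chemokines, granzymes and migration are turned on, and some unprimed cells of healthy mice, called virtual memory cells, already carry part of that programme.

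*Tcf7*, a naive gene outside the rule, had a UMI in 86.7% of WT and 77.8% of twi cells, and *Il7r*, the survival receptor of naive and memory cells, in 73.3% and 76.2%. *Klf2* was seen in 98.3% and 95.2%, but among B-like cells also in 91.2% (WT) and 91.9% (twi), so its detection does not mark these cells. In B-like cells *Il7r* had a UMI in 17.8% and 16.1% and *Tcf7* in 1.26% of 555 WT and 0.671% of 149 twi cells, at median depths of 2017 and 2202 UMIs. Of 10 genes of CD4+ and regulatory T cells, 4 in WT and 6 in twi had a UMI in the naive-like cells, *Ikzf2* with 18 and 16 UMIs the most and *Foxp3*, the regulatory T cell factor, with 0 and 1. *Cd8b1*, which encodes the CD8β chain, had one in 98.3% and 96.8% of the cells and *Cd4* in none, as the rule largely fixes. Genes of activated or memory cells were there too: *Nkg7*, a cytotoxic granule gene, had a UMI in 45 of 60 WT and 52 of 63 twi cells, and *Klrd1*, a subunit of an NK receptor, in 65.0% and 63.5%. In B-like cells *Nkg7* was seen in 4.86% and 10.7% of cells and *Klrd1* in 1.62% and 5.37%. Of 42 effector and memory genes 13 passed the limit on low counts. Others had few UMIs, such as *Gzma* with 2 in WT and 6 in twi, *Tbx21* with 2 and 2 and *Klrg1* with 1 and 0. *Klrd1* differed little from the other gated CD8+ T cells described below, with ratios of 0.780 (interval 0.556 to 1.10) in WT and 0.915 (interval 0.743 to 1.12) in twi. Genes of the naive state and some genes of activated or memory cells were thus both seen in the class, and the cells are called naive-like by the rule.

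Cells on either side of the naive limit were close in some genes and apart in others. Among cells without *Cxcr6*, *Gzmk* and *Gzmb*, those with 2 UMIs of the naive genes numbered 7 in WT and 11 in twi, with 625 and 320.4 CPM of *Tcf7* and 2744 and 5378 CPM of *Ccl5*. Those with 1 such UMI, just outside, numbered 7 and 16, with 538 and 342 CPM of *Tcf7* and 4125 and 3954 CPM of *Ccl5*. In twi the cells inside and outside differed in genes described below: the interferon list had 1396 CPM inside and 6213 CPM outside, and *Ly6c1* 160.2 CPM and 548 CPM, while in WT the list had 2154 CPM and 2810 CPM. Cells with at least 5 naive UMIs and 1 effector UMI, left out by the effector limit, numbered 7 in WT and 12 in twi, with *Ccl5* at 75.2 and 1006 CPM. Their *Tcf7* was at 263 and 181 CPM, below that of the members.

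The libraries differed in ways that the genotype does not define. *Xist*, which is expressed from the inactive X chromosome of females, had 0 UMIs in the 60 WT cells, against 97 UMIs in 24 of the 63 twi cells, or 369 CPM, which is at least 27.2-fold higher when set against 3 counts over the WT cells. Transcripts of the Y chromosome were seen without *Xist* in 31 WT and 14 twi cells, and 29 and 25 cells had neither. The WT pool thus showed male transcripts only and the twi pool those of both sexes, so for a gene that differs between animals or sexes, genotype and the make-up of the pool cannot be told apart.

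Transcripts of other cell types were spread thinly over many cells, and 2 twi cells held large numbers of them. A neutrophil marker was seen in 59 of 60 WT and 52 of 63 twi cells and an erythroid or brain marker in 60 of 60 and 58 of 63. All 5 neutrophil markers that passed the limit on low counts were at least 1.5-fold lower in twi, beside 7.72% of all genes tested. The 13 genes of the list summed to 1402 CPM in WT and 457 CPM in twi, with *S100a8*, which encodes a calprotectin subunit, as the most abundant. *S100a8* had a UMI in 88.3% of WT and 52.4% of twi naive-like cells, against 69.7% and 33.6% of B-like cells. B cell markers summed to 231 and 91.4 CPM, microglial markers to 140.2 and 122 CPM with *P2ry12*, *Trem2* and *Siglech* at 0 in both libraries, and γδ T cell markers to 18.1 and 15.2 CPM. The haemoglobin transcript *Hbb-bs* had 710.1 CPM in WT and 518 CPM in twi, and 1 twi cell of 4426 UMIs held 84 of the 293 erythroid and brain UMIs, with 1 UMI of the monocyte list. Monocyte markers summed to 651 CPM in WT and 1977 CPM in twi, and of the 519 twi UMIs 386 lay in 1 cell of 8916 UMIs, which held 289 UMIs of the lysozyme gene *Lyz2* and 75 of *Chil3* beside 6 of *Cd8b1*, 4 of *Lef1* and 0 of *Tcf7*. In the remaining twi cells no cell held more than 8 monocyte UMIs, and without that cell the markers summed to 524 CPM in twi. Markers of NK cells summed to 190.0 and 404 CPM, and 48 of their 106 twi UMIs lay in the same cell, as *Fcer1g* and *Tyrobp*, without which they summed to 229 CPM. Markers of CD4+ and regulatory T cells summed to 122 and 126 CPM. The part of these transcripts in the differences below was not tested.

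The share of naive-like CD8+ T cells among all cells was nearly the same in both libraries. It was 4.72% (60 of 1271 cells, exact interval 3.62 to 6.04%) in WT and 5.22% (63 of 1207 cells, 4.03 to 6.63%) in twi, giving a ratio of 1.11 (interval 0.764 to 1.60). The other gated CD8+ T cells, those of the same gate that failed the naive or the effector limit, made up 3.23% (41 cells) in WT and 27.9% (337 cells) in twi, giving a ratio of 8.66 (interval 6.25 to 12.3). The naive-like share of the gated, noncycling CD8+ T cells was therefore 59.4% (60 of 101) in WT and 15.8% (63 of 400) in twi, giving a ratio of 0.265 (interval 0.183 to 0.384). Naive-like CD4+ T cells, taken with *Cd4* in place of the CD8 genes, numbered 32 in WT and 31 in twi, giving a ratio of shares of 1.02 (interval 0.602 to 1.73). All of these are shares of what was sorted. B-like cells made up 43.7% of WT and 12.3% of twi cells and neutrophil-like cells 18.7% and 5.63%. Over the cells that were neither, the naive-like CD8+ share was 13.5% in WT and 6.66% in twi, giving a ratio of 0.493 (interval 0.341 to 0.714), so its direction turned with the denominator.

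**Figure D1:**
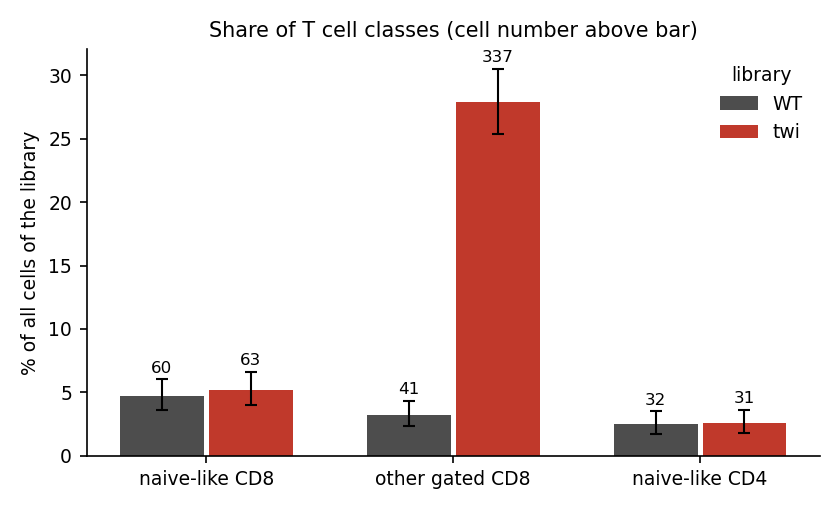
Share of all cells (%, vertical axis) taken by naive-like CD8+, other gated CD8+ and naive-like CD4+ T cells in the WT and twi libraries, with exact 95% intervals for counting error as bars and the number of cells above each. The naive-like shares are close between the libraries, at 4.72% and 5.22% for CD8+ cells, while the other gated CD8+ cells stand at 3.23% and 27.9%.

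Set against the other gated CD8+ T cells of the same library, the naive-like cells had higher levels of naive genes and lower levels of effector genes. The rule separates the classes by such genes, so this is a description. Outside the rule, the genes most in favour of the naive-like cells in both libraries included *Pik3ip1*, an inhibitor of PI3 kinase, at 190.0 CPM against 84.4 CPM in WT and 213 CPM against 53.8 CPM in twi, and *Tcf7*, at 516 CPM against 239 CPM and 472 CPM against 125 CPM. *Pdcd4*, an inhibitor of translation, and *Il7r* were among them, with ratios of 1.97 and 1.57 in WT and 1.90 and 3.10 in twi, as were *Gm26740*, *Paip2*, *Cytip*, *Hmgn1*, *4930523C07Rik* and *Anp32e*, with ratios of 1.54 to 2.16 over both libraries. In cells thinned before the rule *Gm26740* was at 0.721 in WT and 0.930 in twi, and *Cytip* at 0.801 and *Hmgn1* at 0.833 in twi, and *Anp32e* was at 0.527 in twi between cells with Y transcripts, so for these 4 genes the direction was not kept. Over the alternatives the ratio of *Pik3ip1* ran from 1.325 to 7.51 in WT and from 1.93 to 8.03 in twi. The genes most in favour of the other cells were *Gzma*, which encodes granzyme A, at 9.05 CPM in naive-like and 584 CPM in other WT cells and 22.9 CPM and 411 CPM in twi, and the calcium-binding protein gene *S100a6*, at 13.6 CPM and 457 CPM in WT and 99.0 CPM and 974 CPM in twi. *Isg15*, *Ccl5*, the transcription factor gene *Id2*, *Ahnak*, the integrin genes *Itgb1* and *Itgal*, *Cd82* and *Lgals1* followed, with ratios between 0.132 and 0.402. In thinned cells *Cd82* was at 1.03 in WT, so its direction was not kept there. Of the 242 NK list UMIs in the 41 other WT cells, 118 lay in 1 cell, and *Gzma* was the most abundant gene of that list.

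The distance between the classes was not the same in both libraries. Of the genes tested, which needed at least 10 UMIs and a mean of 50 CPM, 9.47% in WT and 9.43% in twi were at least 1.5-fold higher in the naive-like cells, and 20% and 12.7% were at least 1.5-fold lower. For such counts and for medians of log2 ratios, 0.5 UMIs were added to each count, which draws genes of few UMIs towards 1, while the ratios of single genes are given without it. Of the naive and quiescence genes, 5 of 26 in WT and 18 of 25 in twi were past 1.5-fold in favour of the naive-like cells, with median log2 ratios of 0.30 and 1.04 (all genes, -0.11 and -0.04). *Klf2* had 1904 CPM in naive-like and 1666 CPM in other WT cells, against 1562 CPM and 711 CPM in twi. *S1pr1* had 172 CPM and 120 CPM in WT and 171 CPM and 57.2 CPM in twi. The naive-like cells were alike across the libraries for *S1pr1* and somewhat lower in twi for *Klf2*, and the other cells were lower in twi for both. The other class was not made up alike. Cells with at least 5 naive UMIs and 1 effector UMI were 7 of 41 in WT and 12 of 337 in twi. More of its cells passed the naive limit and failed the effector limit alone. With at least 5 naive and at least 2 effector UMIs there were 4 and 8. With 3 or 4 naive UMIs there were 1 and 5 at 1 effector UMI, and 1 and 8 at more. With 2 naive UMIs there were 2 and 9 at 1 effector UMI, and 2 and 18 at more. The part of this make-up in the distance was not tested. Of the effector and memory genes, 21 of 24 were at least 1.5-fold lower in the naive-like cells of each library, and none was higher. In WT, 1 of the 41 other cells held 261 of the 274 UMIs of the microglial list in that class. Likewise, 1 of the 32 WT naive-like CD4+ T cells, a class compared below, held 270 of the 282 microglial UMIs there.

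**Figure D2:**
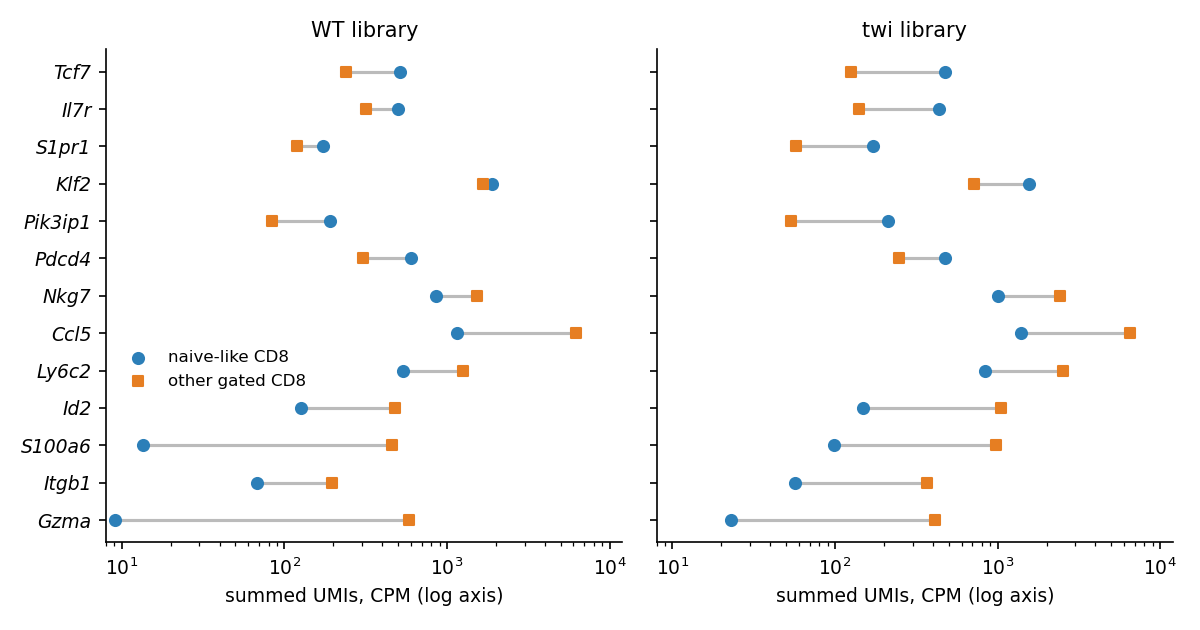
Level of 13 genes in CPM (log axis) in naive-like (circles) and other gated CD8+ T cells (squares) of the WT library (left) and the twi library (right). Of the upper 6 genes, of the naive state, all but *Pdcd4* lie further apart in twi, where *Klf2* stands at 1562 against 711 CPM, while the lower 7, of effector and memory cells, are higher in the other cells of both libraries.

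Within the naive-like cells, *Ccl5*, which encodes a chemokine made by memory and effector T cells, set off part of the cells. It had 0 UMIs in 36 WT and 22 twi cells, 1 or 2 UMIs in 14 and 21 cells, and 3 or more in 10 and 20 cells. A UMI was seen in 24 of 60 WT and 41 of 63 twi cells, or 26.7% and 38.1% after each cell was thinned to 1000 UMIs, against 10.6% and 26.2% of B-like cells unthinned. The level was 1153 CPM in WT and 1398 CPM in twi, giving a ratio of 1.21 (interval 1.03 to 1.43), and single cells held up to 69 and 98 UMIs. The ratio depended on the limits of the rule: with at least 3 naive UMIs it was 0.659, with *Cd8b1* itself required of each cell 0.838, between cells with Y transcripts 0.609, and in cells thinned before the rule was applied 0.208. No direction can be read from it.

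The cells with 3 or more *Ccl5* UMIs differed from those with none in some other genes, not all in the direction of memory cells. *Ly6c2*, which encodes a surface protein of memory cells and monocytes, had 309 CPM in WT cells without *Ccl5* and 1115 CPM in those with 3 or more, and 323 CPM and 1455 CPM in twi. The chemokine receptor gene *Cxcr3* had 23.8 CPM and 219 CPM in WT and 53.9 CPM and 248 CPM in twi, and *Nkg7* had 736 CPM and 1290.2 CPM in WT and 539 CPM and 1278 CPM in twi. The naive gene *Igfbp4* had 238 CPM and 0 CPM in WT, where 0 allows up to 65.6 CPM, and 108 CPM and 53.2 CPM in twi. *Tcf7* did not follow this order in WT, with 467 CPM and 656 CPM, and did in twi, with 566 CPM and 311 CPM. *Lgals1*, which encodes galectin 1 and belongs to the memory list, went opposite ways, with 63.3 CPM and 284 CPM in WT and 633 CPM and 231 CPM in twi. These groups of cells were formed from the counts and are no groups of the study. *Eomes*, the transcription factor of virtual memory cells, had 11 UMIs in WT and 5 in twi, and *Cd44* 8 and 7, too few to place single cells.

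Interferon-stimulated genes answer type I and type II interferon through dedicated transcription factors, and many carry the interferon-stimulated response element before their start. The letters GAAA, any 2 bases and GAAA again, on either strand (TTTC, any 2 bases and TTTC on the printed one) and with overlaps between matches allowed, were sought in the 250 bases before each start in the RefSeq table for GRCm38.p6, which is the mm10 build. They were found for 3.46% of 27025 genes and for 17 of the 41 genes of the interferon list that were matched, out of 53 in the count table. *Isg15*, a ubiquitin-like modifier, and *Bst2*, the antiviral tether tetherin, are shown because their levels in the naive-like cells are given below. The capitals mark the matches, and each stretch ends at the base before the start of the gene. That of *Isg15* is chr4:156200819-156201068 on the minus strand and that of *Bst2* chr8:71537473-71537722 on the minus strand.
Isg15: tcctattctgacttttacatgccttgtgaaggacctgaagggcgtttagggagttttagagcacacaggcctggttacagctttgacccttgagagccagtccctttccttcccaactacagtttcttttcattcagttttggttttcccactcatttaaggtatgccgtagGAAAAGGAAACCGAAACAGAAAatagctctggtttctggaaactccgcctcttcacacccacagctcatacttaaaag
Bst2: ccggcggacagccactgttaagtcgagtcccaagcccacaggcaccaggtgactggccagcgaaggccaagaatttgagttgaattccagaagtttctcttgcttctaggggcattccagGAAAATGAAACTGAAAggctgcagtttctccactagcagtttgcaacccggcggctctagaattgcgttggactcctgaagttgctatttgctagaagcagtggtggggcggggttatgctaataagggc

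The interferon-stimulated genes differed little in sum between the naive-like cells of the libraries. The 53 genes summed to 2551 CPM in WT and 2788 CPM in twi, giving a ratio of 1.09 (interval 0.978 to 1.22), or 1.03 without the cell of the monocyte transcripts. Of the 13 genes tested, 2 were at least 1.5-fold higher in twi and none at least 1.5-fold lower, beside 10.7% and 7.72% of all 2216 genes tested in these cells, and their median log2 ratio was 0.09 beside 0.02 for all genes. Without that cell 1 of 12 was higher, and the median was -0.10. The higher genes were *Irf1*, a transcription factor of the interferon response, with 8 and 18 UMIs, and *Ifitm3*, an antiviral membrane protein, with 1 and 33 UMIs, of which 29 lay in the cell of the monocyte transcripts. The 4 UMIs left without it were too few to pass the limit (ratio 3.49, interval 0.345 to 172). *Isg15* had 58.8 CPM in WT (13 UMIs) and 64.8 CPM in twi (17 UMIs), a ratio of 1.10 (interval 0.504 to 2.47). It was 2.39 with 1 naive UMI accepted, 0.318 between cells with Y transcripts and 0.341 in cells without *Ccl5*, so these few UMIs give it no direction. *Bst2* had 149 CPM and 202 CPM, a ratio of 1.35 (interval 0.860 to 2.16). *Ifi27l2a*, the most abundant gene of the list, had 583 CPM and 659 CPM, a ratio of 1.13 (interval 0.894 to 1.43). Over the alternatives the ratio of *Ifi27l2a* ran from 0.818 to 1.83, so its direction was not kept. At these counts the intervals of all 3 genes include 1.

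In the other gated CD8+ T cells the same list was higher in twi, with 4408 CPM in WT and 7267 CPM in twi, giving a ratio of 1.65 (interval 1.52 to 1.79). Of the 30 genes tested there, 15 were at least 1.5-fold higher, and none at least 1.5-fold lower, beside 10.5% and 12.6% of all genes. The ratio in the other cells was 1.51 times that in the naive-like cells (approximate interval 1.32 to 1.73), and naive-like CD4+ T cells had a ratio of 1.06 (interval 0.888 to 1.27). The other class was not made up alike: cells without *Ccl5* were 43.9% of it in WT and 10.4% in twi. Among other cells without *Ccl5* the ratio was 1.21 (interval 1.01 to 1.45), with 1 or 2 UMIs 3.06 (interval 2.32 to 4.12, 6 WT cells) and with 3 or more 1.26 (interval 1.14 to 1.39). In naive-like cells the same groups gave 1.10 (interval 0.924 to 1.32), 0.721 (interval 0.572 to 0.910) and 1.56 (interval 1.24 to 1.98), the last with the cell of the monocyte transcripts. In the other class 2 WT cells held many of the list UMIs. Without the 2 WT cells of most list UMIs, the other class, left with 364 of 627 UMIs, had a ratio of 2.62 and the naive-like class 1.26 (interval 1.12 to 1.41). Only WT cells of the highest counts were left out and all twi cells were kept. The ratio therefore had to rise, and no conclusion is drawn from it.

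Per cell, the list took a median of 18.5 UMIs per 10000 in WT naive-like cells and 19.2 in twi, with the lowest cell at 0 in both and the highest at 136 and 120. In the other gated CD8+ cells the median was 19.4 in WT and 54.9 in twi. A level above the 90th percentile of the WT naive-like cells, 54.1 per 10000, was reached by 6 of 60 WT and 6 of 63 twi naive-like cells, by 7 of 41 and 170 of 337 other cells, and by 1 of 32 and 6 of 31 naive-like CD4+ cells. The naive-like cells of the libraries overlapped over nearly their whole range. The ratio between them depended on the rule. With 1 naive UMI accepted the ratio was 1.33, and in cells thinned to 1000 UMIs before the rule was applied, which left 33 cells in each library, it was 0.814.

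**Figure D3:**
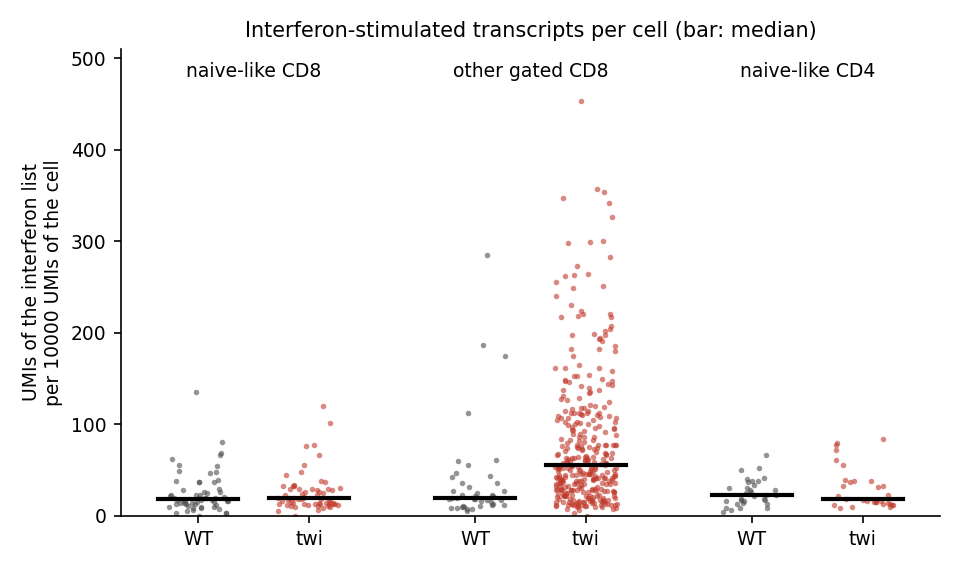
UMIs of the 53 interferon-stimulated genes per 10000 UMIs of each cell (vertical axis), 1 point a cell, in naive-like CD8+, other gated CD8+ and naive-like CD4+ T cells of the WT and twi libraries, with the median as a bar. The medians of naive-like CD8+ cells are 18.5 in WT and 19.2 in twi, and that of the other CD8+ cells is 54.9 in twi.

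MHC class I genes, which encode the molecules that present peptides to CD8+ T cells and the machinery that loads them, followed the same order. Over 25 genes the sum was 12642 CPM in WT and 12272 CPM in twi naive-like cells, a ratio of 0.971 (interval 0.922 to 1.02). Of 22 genes tested none was at least 1.5-fold higher and 1 at least 1.5-fold lower, beside 10.7% and 7.72% of all genes. Without the cell of the monocyte transcripts none of the 22 was past 1.5-fold in either direction. *B2m*, which encodes the light chain, had 4225 CPM and 3999 CPM, and *H2-K1*, a classical heavy chain gene, 1931 CPM and 1706 CPM. In the other gated CD8+ cells the ratio of sums was 1.34 (interval 1.28 to 1.41), 1.38 times that in naive-like cells (approximate interval 1.29 to 1.48), and *B2m* had 4001 CPM in WT and 5853 CPM in twi. Among the interferon-γ inducible GTPases 3 genes could be tested, of which *Igtp* had 8 UMIs in WT and 28 in twi, giving a ratio of 2.95 (interval 1.31 to 7.48), and *Ifi47* had 46 and 48. Of the genes that sense and relay interferon, 2 of 5 were at least 1.5-fold higher in twi and none lower, beside 10.7% and 7.72% of all genes. These were *Irf1* and *Irf2*, a pair of related transcription factors, and *Irf2* had 58.8 CPM in WT and 137 CPM in twi.

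Naive and quiescence genes summed to 11692 CPM in WT and 10878 CPM in twi, giving a ratio of 0.930 (interval 0.882 to 0.982), and of 26 genes 2 were at least 1.5-fold higher in twi and 4 lower, beside 10.7% and 7.72% of all genes, with a median log2 ratio of -0.15 beside 0.02. *Klf2* had 1904 CPM in WT and 1562 CPM in twi, giving a ratio of 0.820 (interval 0.714 to 0.942). *Satb1*, a chromatin organizer of T cell development, had 425 CPM and 309 CPM, and *Btg2*, an antiproliferative gene, 511 CPM and 316 CPM. On the other side stood *Txk*, a kinase of the T cell receptor pathway, with 222 CPM in WT and 339 CPM in twi, and the antiproliferative gene *Tob1*, with 49.8 CPM and 107 CPM. In cells without *Ccl5* the ratio of the whole list was 1.02. The recirculation genes had a median log2 ratio of -0.01 over 11 genes and those of the CD8 lineage and T cell receptor complex of 0.03 over 23, with *Cd6* and *Fyn* at least 1.5-fold higher in twi and none lower, shares near those over all genes.

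Effector and memory genes summed to 5826 CPM in WT and 7092 CPM in twi, giving a ratio of 1.22 (interval 1.13 to 1.31). Of the 13 genes tested 4 were at least 1.5-fold higher in twi and none lower, beside 10.7% and 7.72% of all genes, and the median log2 ratio was 0.24, beside 0.02. Without the cell of the monocyte transcripts 3 of 12 were higher. The 4 were *Ly6c2*, *Cxcr3*, *Lgals1* and *S100a6*. *Lgals1* had 149 CPM in WT, in 17 cells, and 366 CPM in twi, in 36 cells, a ratio of 2.45 (interval 1.63 to 3.76). The ratio was 1.27 with 1 effector UMI accepted, 1.36 in cells thinned before the rule, 3.61 between cells with Y transcripts and 10.0 in cells without *Ccl5*. Of the 26 twi UMIs of *S100a6* 17 lay in the cell of the monocyte transcripts, against 3 UMIs in WT, and the 9 UMIs left without it were too few to pass the limit. *Cxcr3* had 72.4 CPM in 12 WT cells and 149 CPM in 21 twi cells, giving a ratio of 2.05 (interval 1.12 to 3.93), but 0.955 between cells with Y transcripts and 0.25 in cells thinned before the rule, so its direction was not kept. *Nkg7* and *Klrd1* had ratios of 1.18 (interval 0.977 to 1.43) and 1.19 (interval 0.885 to 1.60), and *Nkg7* was at 1.68 in thinned cells and 0.732 in cells without *Ccl5*. Over cells thinned to 1000 UMIs before the rule the ratio of the list was 0.924, so its direction was not kept.

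**Figure D4:**
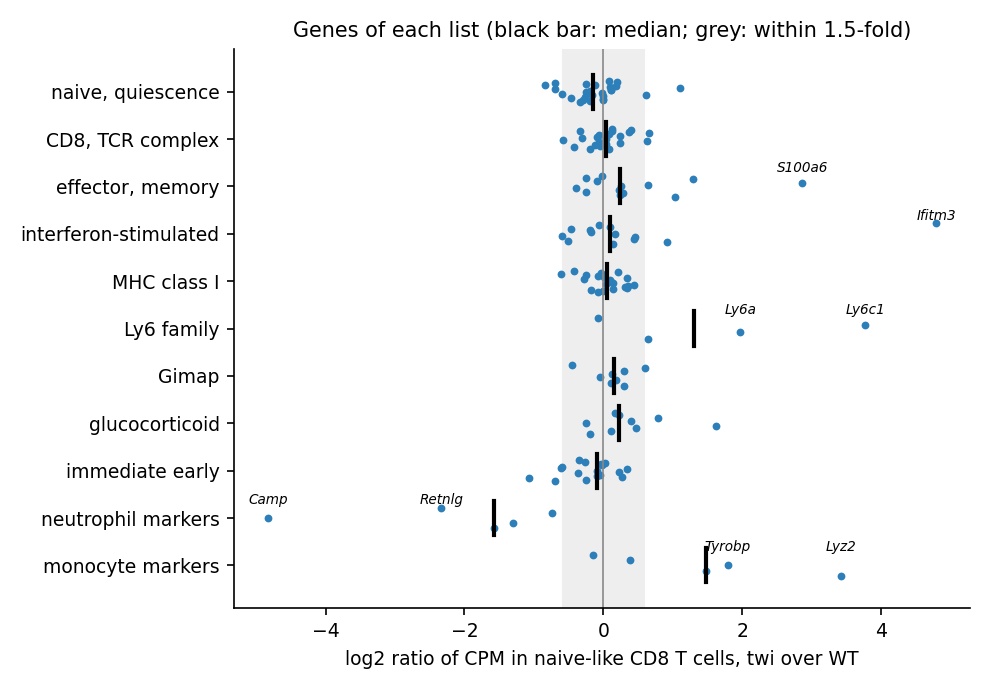
Log2 ratio of CPM, twi over WT, in naive-like CD8+ T cells (horizontal axis) for each tested gene of 11 lists with a UMI in both libraries, 1 point a gene, with the median of each list as a black bar and the range within 1.5-fold in grey. Most lists centre near 0, while the 5 neutrophil genes lie to the left. To the right lie 3 of 4 Ly6 genes and 4 of 5 monocyte genes, led by *Lyz2*, whose UMIs lay mostly in 1 cell. Without that cell the median of the monocyte list was -0.43.

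Of the Ly6 family, small surface proteins held by a lipid anchor, 4 of 10 genes could be tested, and *Ly6c1*, *Ly6a* and *Ly6c2* were at least 1.5-fold higher in twi, beside 10.7% of all genes, while *Ly6e* was not. *Ly6c1* (ENSMUSG00000079018), a marker of memory and recirculating CD8+ T cells, had 4 UMIs in 3 of 60 WT cells, at most 2 in a cell, and 65 UMIs in 17 of 63 twi cells, at most 10 in a cell. The levels were 18.1 CPM (interval 4.93 to 46.3) and 248 CPM (interval 191 to 316), a ratio of 13.7 (interval 5.10 to 51.7). In B-like cells a UMI was seen in 0.901% of WT and 2.01% of twi cells. *Ly6a*, which encodes Sca-1, had 6 UMIs in WT and 28 in twi, giving a ratio of 3.93 (interval 1.60 to 11.6), and *Ly6c2*, the neighbouring copy of *Ly6c1*, had 534 CPM and 838 CPM, a ratio of 1.57 (interval 1.25 to 1.98). Over the alternatives that gave it a ratio, *Ly6a* ran from 1.91 to 6.56, the lowest between cells with Y transcripts, on 1 UMI in each library. *Ly6e* had 516 CPM and 488 CPM. *Ly6c1* and *Ly6c2* are close copies, and how reads that fit both were counted was not tested, so the split between them is uncertain. The 250 bases before the first of 2 starts of *Ly6c1* in the table, chr15:75048838-75049087 on the minus strand, are printed as those of the gene with the largest ratio of the family, and these held no match to the letters sought above.
Ly6c1: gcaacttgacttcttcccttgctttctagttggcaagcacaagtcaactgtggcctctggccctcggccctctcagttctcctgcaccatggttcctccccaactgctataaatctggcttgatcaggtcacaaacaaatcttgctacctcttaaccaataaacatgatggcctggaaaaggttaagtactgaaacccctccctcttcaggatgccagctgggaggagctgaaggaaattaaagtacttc

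The difference in *Ly6c1* was not evenly spread over the twi cells. In twi cells with *Xist* it had 324 CPM, in 10 of 24 cells, in cells with Y transcripts 49.4 CPM, in 1 of 14 cells, and in cells with neither 283 CPM, in 6 of 25 cells. In WT cells with Y transcripts it had 0 UMIs, which allows up to 25.9 CPM. The other gated CD8+ T cells of twi showed the same order, with 975 CPM in cells with *Xist* and 50.5 CPM in cells with Y transcripts, and there the WT cells with Y transcripts had 264 CPM, from 17 UMIs in 3 cells. Between cells with Y transcripts *Ly6c1* was thus lower in twi in the other gated class, on 3 WT cells. Between cells with neither transcript it was higher in twi in both classes, with 25.7 CPM in WT and 399 CPM in twi in the other cells and 38.0 CPM in WT naive-like cells. Over all other gated cells it had 134 CPM in WT and 764 CPM in twi. Naive-like CD4+ T cells had 144 CPM and 277 CPM. For *Ly6c2* the cells with Y transcripts gave a ratio of 1.10 in naive-like CD8+ cells, and *Ly6a* had too few UMIs in them to compare. Sex, single animals and genotype cannot be told apart for these genes.

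**Figure D5:**
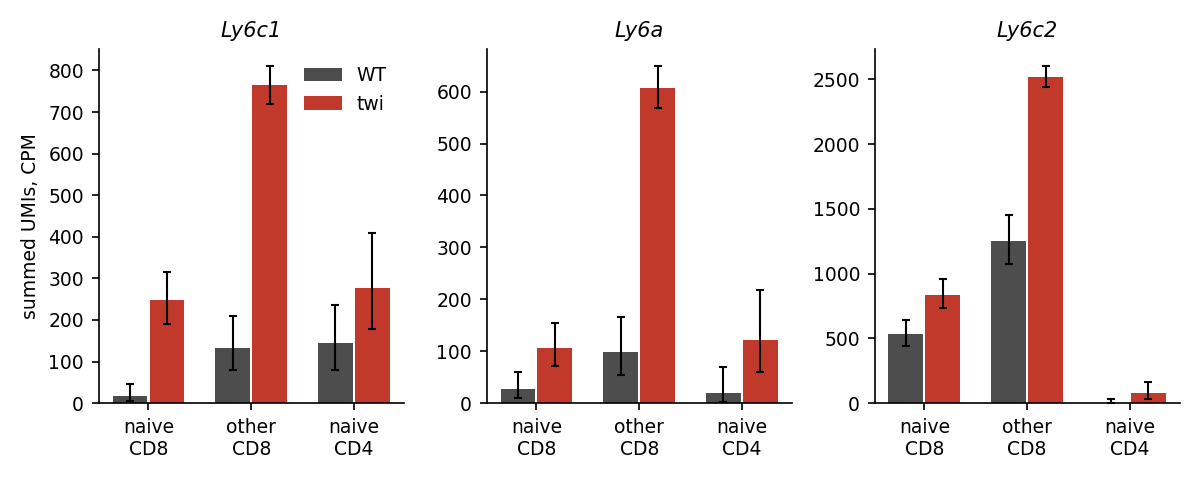
Level in CPM (vertical axes, which differ between panels) of *Ly6c1*, *Ly6a* and *Ly6c2* in naive-like CD8+, other gated CD8+ and naive-like CD4+ T cells of the WT (grey) and twi (red) libraries, with exact Poisson 95% intervals as bars. *Ly6c1* is at 18.1 CPM in WT and 248 CPM in twi naive-like CD8+ cells, and all 3 genes are highest in the other gated CD8+ cells of twi.

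Over all 2216 genes tested in the naive-like cells, 2.93% were at least 2-fold higher in twi and 1.85% at least 2-fold lower, counts that are no number of changed genes. Besides *Xist*, *Ly6c1*, *Lgals1* and *Cxcr3*, the 10 largest ratios, taken where the mean CPM reached 100 and the higher library had 25 UMIs, were those of *Chil3*, *Lyz2*, *Gtf2i*, *Hspd1*, *Vim* and *Itpkb*. *Chil3* and *Lyz2*, with ratios of 16.2 and 10.8, rested on the cell of the monocyte transcripts, without which they were 0.436 and 0.654. The UMIs of the others were spread over many cells. *Gtf2i*, a general transcription factor gene, had 58.8 CPM in 12 WT cells and 171 CPM in 33 twi cells, giving a ratio of 2.92 (interval 1.55 to 5.89), or 5.73 between cells with Y transcripts and 5.11 in cells without *Ccl5*. *Hspd1*, the mitochondrial chaperonin gene, had 67.8 CPM in 13 WT cells and 175 CPM in 35 twi cells, giving a ratio of 2.58 (interval 1.42 to 4.98), or 1.69 with 1 effector UMI accepted. The intermediate filament gene *Vim* had 145 CPM and 347 CPM, a ratio of 2.40 (interval 1.58 to 3.70), or 1.33 in cells thinned before the rule, 1.64 with 1 effector UMI accepted and 3.37 between cells with Y transcripts. *Itpkb*, a kinase of inositol phosphate signalling in T cells, had 67.8 CPM and 141 CPM, a ratio of 2.08 (interval 1.11 to 4.07), and 0.818 between cells with Y transcripts.

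Among the 10 smallest ratios, 2 were the neutrophil genes *S100a8* and *S100a9*, at 0.334 and 0.405, which are genes of the rule and were lower in twi in every class examined. *Prkcq*, which encodes the protein kinase Cθ of T cell receptor signalling, had 208 CPM in 33 WT cells and 72.4 CPM in 16 twi cells, giving a ratio of 0.348 (interval 0.192 to 0.605), or 0.664 between cells with Y transcripts and 0.243 in cells without *Ccl5*. *Fos*, an immediate early gene that also answers tissue dissociation, had 819 CPM in WT and 389 CPM in twi, giving a ratio of 0.475 (interval 0.369 to 0.608), but 1.18 between cells with Y transcripts, and 1 WT cell alone held 31 of its 181 UMIs. *Gm10260* and *Rps18-ps3*, at 0.355 and 0.502, are by name a predicted gene and a ribosomal protein pseudogene, and reads of close copies may be split between such genes and others, so their values are uncertain. *Emc10*, *Slc38a2*, an amino acid transporter gene, and *Dcun1d5* followed, with ratios of 0.421 to 0.485, and the chromatin remodelling gene *Bptf* had 145 CPM and 72.4 CPM. Thinned cells gave 0.8 for *Emc10* and 1.0 for *Bptf*, and cells with Y transcripts 0.955 for *Slc38a2*, so the difference of these 3 genes was smaller there. It was larger at 0.286 for *Emc10* and 0.191 for *Bptf* between cells with Y transcripts and at 0.122 for *Slc38a2* in cells without *Ccl5*. *Gm10260* was at 0.649 in thinned cells, 0.567 between cells with Y transcripts and 0.578 in cells without *Ccl5*. Of the signalling genes measured beside *Prkcq*, *Zap70* had 154 CPM and 103 CPM, *Lck* 665 CPM and 640 CPM and *Lat* 439 CPM and 449 CPM. *Fyn*, with 81.4 CPM and 126 CPM, and *Txk*, with 222 CPM and 339 CPM, were higher in twi.

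The counts of the remaining lists stand beside 10.7% of all genes at least 1.5-fold higher in twi and 7.72% at least 1.5-fold lower. Of 17 immediate early and heat shock genes tested none was at least 1.5-fold higher in twi and 3 were lower, with a median log2 ratio of -0.09. The 3 were *Fos*, *Btg2* and *Hspa1a*, a heat shock chaperone gene with 1235 CPM in WT and 807 CPM in twi. Genes that answer T cell receptor stimulation had a median of -0.25 over 5 genes, with the early activation marker *Cd69* at 267 CPM and 217 CPM. The Gimap genes, GTPases of lymphocyte survival, had a median of 0.15 over 8 genes with none past 1.5-fold, and glycolysis genes 0.18 over 8 with 1 past it, *Pfkp*, higher. Glucocorticoid-responsive genes had a median of 0.22 over 9, and 2 were at least 1.5-fold higher, *Ddit4* with 6 and 22 UMIs and *Zfp36l2* with 204 CPM and 350.4 CPM. Cytokine receptor and survival genes had a median of 0.21 over 11, with 2 at least 1.5-fold higher and 1 lower. Without the cell of the monocyte transcripts the median was 0.03 over 12. Among them were *Bcl2*, the survival gene, at 669 CPM and 777 CPM, and *Il4ra*, the interleukin 4 receptor gene, at 40.7 CPM and 95.2 CPM. *Il6ra* went the other way, with 154 CPM and 99.0 CPM. Of 9 genes of a cell cycle list, which holds none of the genes of the rule, 3 were at least 1.5-fold higher and none lower, and *Pcna*, the replication clamp gene, had 58.8 CPM and 95.2 CPM. Virtual memory genes had a median of 0.45 over 4, with *Ly6c2* and, in the direction that was not kept, *Cxcr3* past 1.5-fold, and a ratio of sums of 1.36 (interval 1.16 to 1.59), and genes of recent thymic emigrants and newborn T cells of -0.41 over 3, with *Ikzf2* at 81.4 CPM and 60.9 CPM.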

How the data were processed

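Brain leukocytes of 1 WT and 1 twi library were sequenced by the 10x Genomics 3′ method. The files deposited by the authors hold unnormalized UMI counts of each gene in each barcode, made with Cell Ranger 2.1.1 against mm10 per the labels, with filtered barcodes and no cell annotation. The matrices held 1278 WT and 1220 twi barcodes, with 3749714 and 4807539 UMIs, and 27998 gene rows. Barcodes with over 15% of UMIs from mt- genes, 7 in WT and 13 in twi, were left out. No per-sample column was left unmapped (0).

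Counts were summed over the cells of a class in each library and scaled to CPM. CPM values were given exact Poisson intervals, shares exact Clopper-Pearson intervals and ratios exact conditional intervals, all at 95%. The interval of a ratio of ratios was approximate. They cover counting error only. A count of 0 was set to allow 3 counts. No test was made with 1 library per genotype. Genes were tested for a fold with at least 10 UMIs and a mean of 50 CPM. The genes named were those of the rule and of the lists and the 10 largest and 10 smallest ratios where the mean CPM reached 100 and the higher library had 25 UMIs. For naive-like against other CD8+ T cells they had to meet this in both libraries and were ranked by the ratio nearer to 1. Members and lists were chosen with earlier results of these data known.

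By Scrublet (scanpy 1.11.5) 5 WT cells and 5 twi cells were doublets, 0 of them naive-like, and none was removed, so doublets may remain. B-like and neutrophil-like cells were taken by the *Cd79a* and *Cd79b* and the *S100a8* and *S100a9* limits. Python 3.11.15, numpy 2.4.6, scipy 1.17.1, pandas 2.3.3 and matplotlib 3.10.9 were used. The steps were tested on simulated data. Promoter sequences came from the RefSeq table. Alternatives changed the limits of the rule, the depth, the scaling and the minimum, and their effect is given at the end. Some genes of the lists are not reported here.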

Additional observations from a re-analysis of the deposited data

Results flagged for a closer look

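For 7 genes the ratio of twi to WT lay on opposite sides of 1 in naive-like and in other gated CD8+ T cells, and the intervals of both excluded 1. With 1 library per genotype the difference between the classes was not tested. *Txk*, a kinase of the T cell receptor pathway, had a ratio of 1.53 in naive-like and 0.670 in other cells. *Cd3e*, a CD3 subunit gene and part of the rule, had 0.748 and 1.62, but 1.17 in naive-like cells thinned to 1000 UMIs, where the opposite directions were not kept. *Tsc22d3*, a gene induced by glucocorticoids, had 1.39 and 0.441. *Hspd1* had 2.58 and 0.675, and *Itpkb* had 2.08 and 0.511, but 0.818 in naive-like cells with Y transcripts, where the opposite directions were not kept.

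*Fcer1g* and *Tyrobp*, adaptor genes of NK and myeloid cells, had ratios of 2.78 and 3.47 in naive-like cells and 0.390 and 0.215 in other cells. In naive-like cells 24 UMIs of each lay in the twi cell with the monocyte transcripts, and without it the ratios were 0.785 and 0.981. In the other cells, leaving out the WT cell with 261 microglial UMIs, a choice made after seeing the data, gave 0.609 and 0.244.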

How the results depend on the processing

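With 1 library per genotype, counting error is the only error given, and single genes of the naive-like cells rest on few UMIs. No paired analysis was possible because each genotype had a single library of 1 pool. The ratio of the share of gated CD8+ T cells ran from 0.154 to 0.376 and that of MHC class I genes from 0.946 to 1.01. *Ly6c1* ran from 10.1 to 17.0 where WT had a UMI. Settings without one gave no ratio and are not in this range. Among them were the cells with Y transcripts, where twi had 3 UMIs in 1 cell, and the cells without *Ccl5*, where twi had 20 UMIs. The cause of the following shifts was not tested.

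The ratio of the share of all cells was 0.493 over cells neither B-like nor neutrophil-like. The interferon ratio was 1.33 with 1 naive UMI accepted and 0.814 in cells thinned to 1000 UMIs. The number of genes at least 2-fold higher and lower in twi, 65 and 41 of 2216 tested, was 43 and 20 of 2200 with 1 effector UMI accepted, 178 and 131 of 2063 in cells with Y transcripts, 177 and 157 of 3709 with CPM over UMIs outside mitochondrial, ribosomal and calprotectin genes, and 2164 and 1494 of 10331 with no minimum but 1 UMI. After thinning 48 of 807 were higher and 70 lower. *Ccl5* was 0.659 with at least 3 naive UMIs and 0.838 with *Cd8b1* required.

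Thinning, which left out 110 WT and 23 twi cells of all types, also turned the twi over WT ratio of *Ccl5* (0.208), the effector list (0.924), *Cxcr3* (0.25), *Fos* (1.07) and *Cd3e* (1.17), and the naive-like over other ratio of *Gm26740* (0.721 in WT, 0.930 in twi), *Cytip* (0.801 in twi), *Hmgn1* (0.833 in twi) and *Cd82* (1.03 in WT). Cells with Y transcripts gave 0.609 for *Ccl5*, 0.818 for *Itpkb*, 0.955 for *Cxcr3*, 1.18 for *Fos* and 0.527 for *Anp32e* in twi naive-like over other cells.

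Leaving out the twi cell with the monocyte transcripts, and leaving out cells with a *Ccl5* UMI, were chosen after seeing the data, as were the interferon ratios within groups of *Ccl5* UMIs and without 2 WT cells. The first gave 0.436 for *Chil3*, 0.654 for *Lyz2*, 0.785 for *Fcer1g* and 0.981 for *Tyrobp*. The second gave 0.644 for the share of all cells, 0.154 for that of gated CD8+ T cells, 197 and 120 of 2234 genes past 2-fold, 1.02 for the naive list and 0.601 for *Lyz2*.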
